A study of Mus musculus with 50 samples.

Results

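The oxidative phosphorylation subunits are the nuclear-encoded proteins of the 5 complexes of the mitochondrial inner membrane. They were taken as the protein-coding genes whose GENCODE M21 symbols begin with Nduf (followed by a, b, c, s or v), Uqcr, Cox4 to Cox8 or Atp5, together with Sdha to Sdhd and Cyc1, and without the Ndufaf assembly factors. Of 87 such genes 81 were among the 12180 genes of the expression table: 36 of complex I, 4 of complex II, 9 of complex III, 15 of complex IV and 17 of complex V. The 6 others, Cox4i2, Cox6a2, Cox7b2, Cox8b, Cox8c and a second gene model named Atp5o, were not analysed here. The samples were 50 liver libraries of fasted male mice in which chromosomes 4 and 6 segregated A/J-derived and C57BL/6J segments on an otherwise C57BL/6J background; the labels call the animals F2, the study describes an N2 cross. The age label is adult, while the study's methods give an age of 5 weeks. The labels name no treatment and no transgene. All 50 libraries formed a single group, since the labels give no genotype. The only further structure was in the titles: each library carries a number, and the animal numbers beside it rise over libraries 1 to 30 (28 libraries, with library 9 out of order) and start again over libraries 31 to 59 (22 libraries), which are called the 2 library sets here. What the sets stand for is not stated. Libraries 8 and 10 share an animal number, as do 22 and 55, so that 48 animal numbers were present. Values are normalized read counts, the library-scaled counts that the authors deposited. Reads on genes ranged from 9430126 to 24355042 a library, with a median of 10791083.

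Complex I (NADH dehydrogenase), complex II (succinate dehydrogenase), complex III (cytochrome bc1) and complex IV (cytochrome c oxidase) pass electrons from nutrients to oxygen and, except for complex II, pump protons. Complex V (ATP synthase) uses the proton gradient to make ATP. Some subunits are encoded by mitochondrial DNA, and the rest, the genes described here, are transcribed in the nucleus, many from promoters with sites for nuclear respiratory factor 1 (NRF1), ETS-family factors such as GABP, or YY1. Liver depends on these complexes for the ATP that fasting glucose production consumes.

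Promoter sequences of RefSeq, each 250 bases before to 50 bases after a transcript start in the GRCm38.p6 assembly, were matched to 65 of the 81 genes. The core NRF1 motif GCGCANGCG, read on both strands, was present in 19 of the 65 promoters (29.2%) and in 6.25% of all 32851 promoters of the same length. The 65 are 1 promoter for each gene, the nearest to its annotated start. The 32851 are not limited to 1 for each gene or to genes of the expression table, so the shares compare unlike sets. The ETS motif CCGGAAG was present in 15 (23.1%), against 8.86% of all promoters, and the YY1 motif AANATGGCG in 8 (12.3%), against 2.38%. Matches to different motifs did not overlap in the 65 promoters, but an NRF1 match can be read on both strands at the same place. At least 1 of these motifs was found in 35 of the 65 promoters (53.8%) and in 15.4% of all promoters. The 100 bases before the start follow for subunits on which the comparisons turn, with the letters of a motif in capitals. The start is that of the RefSeq transcript, which can lie inside the gene as GENCODE annotates it. It lay 323 bases inside for Ndufa5 and 85 bases inside for Ndufb4. Sdha, Ndufb4 and Ndufa5 are shown for the differences between library sets, Sdhd and Ndufa8 for animal number, Cox6a1 for its level, and Ndufs5 and Uqcrh for their position on chromosome 4. Only stretches with a match are shown. No match lay in the promoters of Ndufab1, Cox7a2, Cox7c and Cox6b2, which also differed between library sets. The same holds for Ndufa10, also called for animal number, and for Ndufa4 and Ndufb2 on chromosome 6. The stretches shown all lie on the minus strand and are written 5′ to 3′ along the gene.
Sdha, chr13:74350241-74350340: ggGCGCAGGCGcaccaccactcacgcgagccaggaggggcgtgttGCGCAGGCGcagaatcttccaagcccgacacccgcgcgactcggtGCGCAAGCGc
Ndufb4, chr16:37654369-37654468: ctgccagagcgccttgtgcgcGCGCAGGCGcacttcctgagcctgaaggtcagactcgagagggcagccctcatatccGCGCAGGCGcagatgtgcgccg
Ndufa5, chr6:24527691-24527790: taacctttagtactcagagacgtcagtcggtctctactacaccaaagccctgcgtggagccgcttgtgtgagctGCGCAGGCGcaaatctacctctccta
Sdhd, chr9:50603850-50603949: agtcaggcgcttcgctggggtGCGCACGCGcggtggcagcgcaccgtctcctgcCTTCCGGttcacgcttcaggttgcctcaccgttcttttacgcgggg
Ndufa8, chr2:36049339-36049438: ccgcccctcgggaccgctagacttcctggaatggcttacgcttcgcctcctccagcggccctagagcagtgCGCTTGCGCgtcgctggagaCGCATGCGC
Cox6a1, chr5:115348959-115349058: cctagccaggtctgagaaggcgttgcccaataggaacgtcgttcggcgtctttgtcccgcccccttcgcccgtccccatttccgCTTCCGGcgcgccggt
Ndufs5, chr4:123718187-123718286: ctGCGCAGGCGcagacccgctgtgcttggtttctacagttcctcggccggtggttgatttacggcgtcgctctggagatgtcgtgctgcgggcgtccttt
Uqcrh, chr4:116075071-116075170: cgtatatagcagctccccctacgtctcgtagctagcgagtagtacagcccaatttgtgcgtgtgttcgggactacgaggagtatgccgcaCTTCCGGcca
The Sdha stretch holds 3 NRF1 matches and the Ndufb4 and Ndufa8 stretches 2 each, while Sdhd carries an NRF1 and an ETS match. A match is a description of these letters and not evidence of a bound site.

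The subunits were highly expressed. Per kilobase of exons (the union of all annotated exons), 64 of the 81 were above 90% of all genes of the table. The highest were the catalytic core of ATP synthase: Atp5a1, the alpha subunit, at 275 ± 21.9 normalized reads per kilobase (SD, n = 50) and Atp5b, the beta subunit that binds the nucleotides, at 256.2 ± 21.1. The SDs of Atp5a1 and Atp5b overlap. Cox6a1, a regulatory subunit of cytochrome c oxidase, followed at 225 ± 30.2. Cox8a stood at 193 ± 24.3 per kilobase. Sdhd, a membrane anchor of succinate dehydrogenase, was at 185 ± 20.54 and Cox4i1, the first nuclear subunit to join cytochrome c oxidase, at 185 ± 24.6, and these 3 do not differ beyond their spread. By complex the median level per kilobase of all annotated exons was 34.3 for complex I, 76.2 for complex II, 97.1 for complex III, 86.8 for complex IV and 41.2 for complex V.

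At the other end, 6 genes lay at or under 5.96 per kilobase. Ndufb2, a small membrane-arm subunit of complex I, was lowest at 0.281 ± 0.0796 per kilobase, with 23.5 reads in the median library. Its annotated exons span 5628 bases because of 1 long transcript, and 45.4% of the 31-base stretches of its short coding transcript of 455 bases also occur in other annotated genes, so that its level is uncertain. The testis isoform Cox6b2 stood at 1.43 ± 0.641 per kilobase, against 182 ± 22.4 for the widely expressed Cox6b1. Cox7a1, the heart and muscle form, was at 1.20 ± 0.600 and Cox7a2, the form of liver and most tissues, at 86.8 ± 12.7. The related Cox7a2l, which takes part in joining complexes into supercomplexes, reached 61.3 ± 7.69. Ndufa4l2, a paralogue induced by low oxygen, was at 0.846 ± 0.302 against 142 ± 20.6 for Ndufa4. Atp5s, which is not a core part of the enzyme, was at 3.09 ± 0.537, and Ndufab1, the mitochondrial acyl carrier protein, at 5.96 ± 0.716. Ndufab1 was not scarce in reads, with 563 in the median library and a mean of 41.0 normalized reads. Its annotated exons span 6883 bases, and 83.9% of the stretches of 1 of its coding transcripts also occur in other genes. Its level per kilobase is therefore uncertain too. Thus in each of these isoform pairs the liver form was far above the other, with no overlap of the ranges over 50 libraries.

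The identical c-ring protein of ATP synthase is made from 3 genes. Atp5g3 had a mean of 267 ± 29.4 normalized reads, Atp5g1 of 117 ± 17.5 and Atp5g2 of 69.0 ± 7.36. Per kilobase of exons they ranked in another order for the lower pair, with 122.6 ± 13.5 for Atp5g3, 41.2 ± 4.39 for Atp5g2 and 23.7 ± 3.56 for Atp5g1. Of their 31-base stretches 40.2% for Atp5g2, 14.1% for Atp5g1 and 0% for Atp5g3 also occur in other genes. In the most shared coding transcript it was 100% for Atp5g2 and 67.3% for Atp5g1. Reads that align to several places were not assigned to genes, so the levels and order of these genes are uncertain. Atp5e, the epsilon subunit, was at 41.2 ± 7.60 per kilobase and Atp5k, the small e subunit that supports dimers of the enzyme, at 76.9 ± 12.5. The choice of length matters for such ranks: with the principal transcript of each gene in place of all exons, 11 of 81 genes moved by more than 20 ranks, among them Atp5l, from rank 67 to rank 8. Of the stretches of Atp5l 85.4% also occur in other genes.

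**Figure D1:**
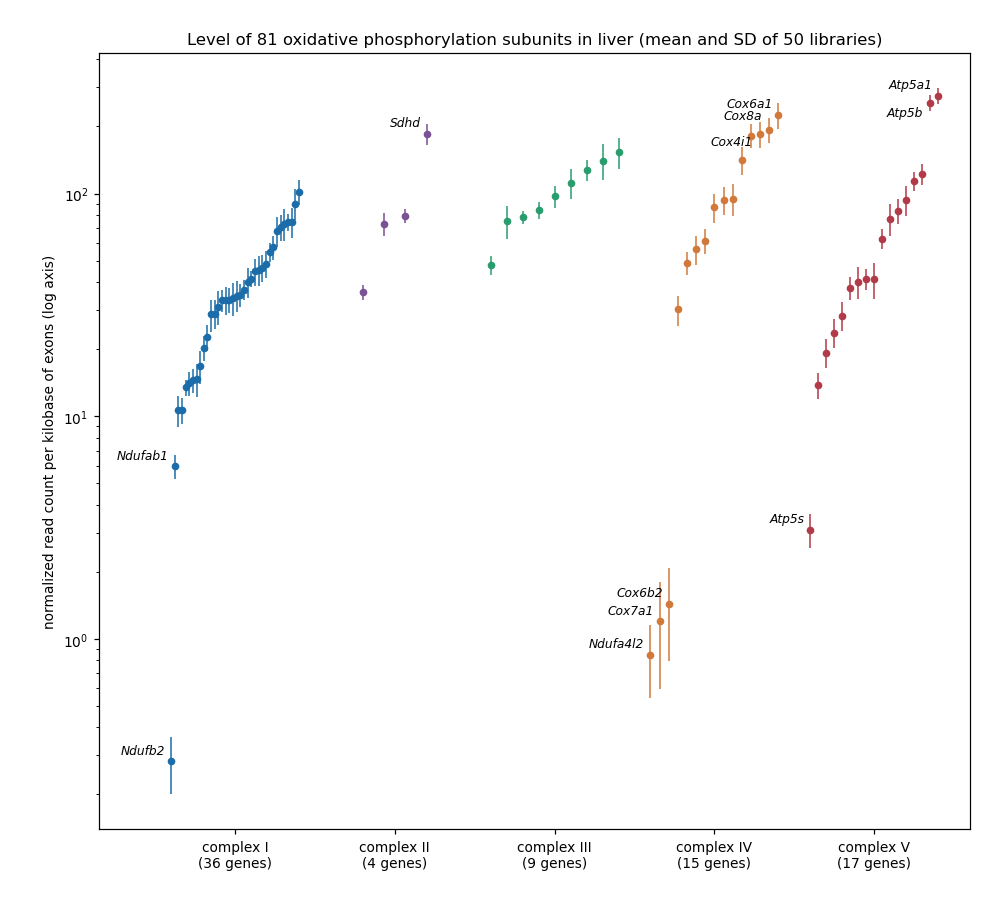
Level of 81 subunits in liver as normalized read count per kilobase of exons on a log axis, by complex, with points at the mean and bars for the SD over 50 libraries. The 6 highest, led by Atp5a1 at 275, and the 6 lowest, down to Ndufb2 at 0.281, are named.

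Subunit levels varied little between livers. The coefficient of variation (CV) ranged from 6.46% for Uqcrc2, a core protein of complex III, to 50.1% for Cox7a1, with a median of 13.6%, and 59 of the 81 genes spanned less than 2-fold from the lowest to the highest library. Set against the 200 genes nearest in mean level, the median percentile of the CV was 58.5, so that the subunits as a list were not set apart from other genes of their level. The steadiest against genes of their level were subunits of complexes II, III and V. Uqcrc2 (177 lowest, 200.6 median, 231 highest) and Sdha, the flavoprotein that oxidizes succinate (272, 330 and 374), both had a CV above that of only 2% of their neighbours. Sdhc stood at percentile 9, Atp5a1 at 8 and Atp5b at 8.74. Other subunits of the same complexes did not lie so low, such as Sdhb at percentile 40 and Uqcrfs1, the iron-sulfur protein of complex III, at 28.5. No subunit reached the 90th percentile, and Cox6b2 came nearest, at percentile 89.0 with a CV of 44.7%. Its values ran from 0.113 to 3.13 normalized reads, with 21.5 reads in the median library, and counting error made up 21.3% of its variance. The highest single ratio of a library to the median was that of Cox7a1, 1.57 against 0.550 normalized reads, at 8 reads in the median library. For 76 of the 81 genes that share was under 15%.

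The subunits rose and fell together across libraries. Over 3081 pairs of the 79 genes with a mean of at least 1, the median Pearson correlation of log2 values was 0.72 over 50 libraries, while for all pairs of genes it was -0.002. Subunits of the same complex were no closer to each other (median 0.73) than subunits of different complexes (0.72). The correlation was highest for Atp5j2, a small membrane subunit of ATP synthase, with a median of 0.83 with the others, Uqcrh, the hinge protein of complex III, with 0.81, and Atp5k with 0.81. It was low or absent for Sdha (-0.14), Ndufb2 (0.15), Ndufs1, the largest core subunit of complex I (0.18), Atp5s (0.24) and Cox6b2 (0.25).

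This shared movement went with transcript length. The principal transcripts of the 81 genes had a median of 865 bases, against 2944 bases for all genes of the table, and 77 were shorter than that. In each library the slope of the log2 deviation on log2 transcript length was taken over all other genes. The mean log2 deviation of the 79 subunits ran from -0.23 in library 47 to 0.40 in libraries 18, 21 and 44, and those 3 libraries also had the 3 most negative length slopes, -0.17, -0.17 and -0.24. Library 47, the lowest, had the second most positive slope, 0.09. Library 18, 21 or 44 held the highest value for 73 of the 81 genes. When the log2 values of each library were corrected for principal transcript length, the SD of the mean deviation fell from 0.15 to 0.06 and its range narrowed to -0.10 to 0.14. The median correlation between subunits dropped to 0.26, against -0.002 for all gene pairs. Without libraries 18, 21 and 44 it was 0.60 on the uncorrected values. The summed marker levels of hepatocytes (Alb, Ttr, Apoa1, Cps1 and Serpina1a) were 108604 to 118547 in those 3 libraries and 71835 to 112860 in the others; Kupffer cell, endothelial, stellate, bile duct and erythroid marker sums in the 3 libraries lay within the range of the others, none of 5 skeletal muscle markers was in the table, and of 3 brown fat markers only Elovl3 was. In bulk tissue, fewer cells of a type and less RNA per cell cannot be told apart.

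**Figure D2:**
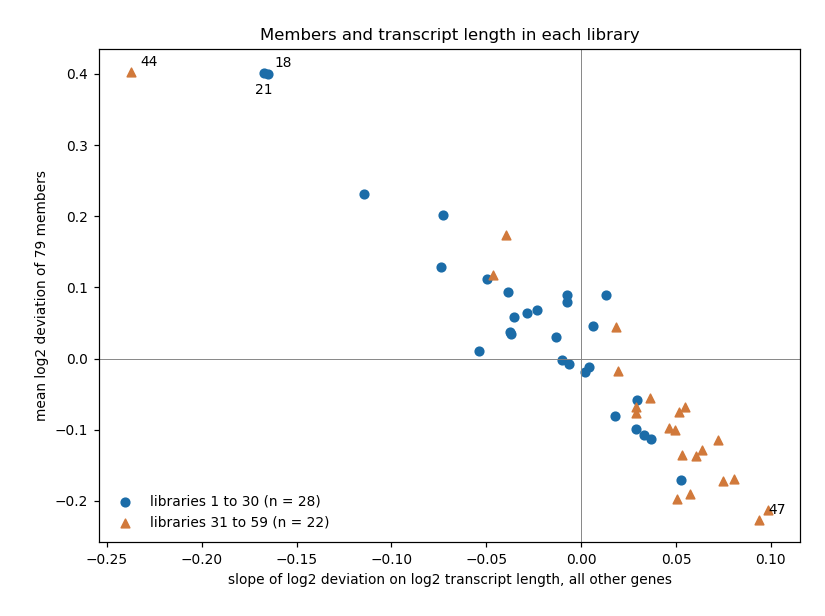
Mean log2 deviation of 79 subunits from their means (y axis) against the slope of log2 deviation on log2 transcript length over all other genes (x axis), with 1 point for each of 50 libraries, circles for libraries 1 to 30 and triangles for 31 to 59. Libraries 18, 21 and 44 lie at the top left, at 0.40, and library 47 at the bottom right, at -0.23.

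**Figure D3:**
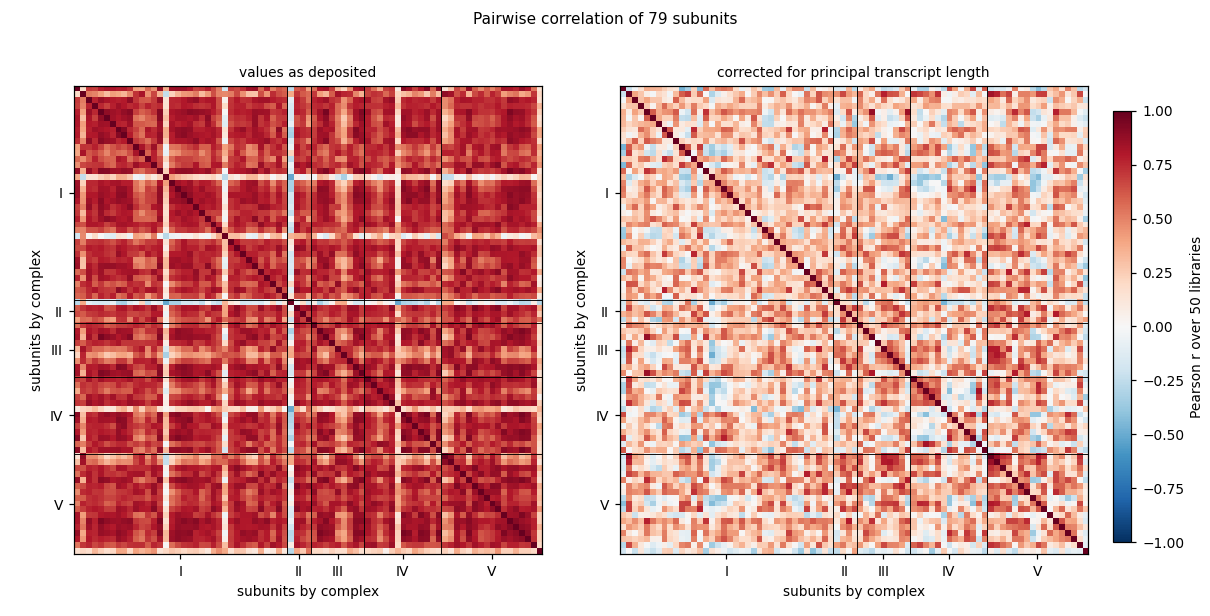
Pearson correlation over 50 libraries for each pair of 79 subunits, ordered by complex, on the values as deposited (left) and after correction for principal transcript length (right). The median falls from 0.72 to 0.26, and neither panel shows blocks that follow the complexes.

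Between the library sets, many small subunits were lower in libraries 31 to 59 than in libraries 1 to 30, and Sdha was higher. Each gene was tested with limma on log2(value + 0.5) across 11431 genes, with Benjamini-Hochberg adjustment. Of the 79 subunits tested 30 were lower and 1 was higher, where 6.46% of all genes were lower and 13.8% were called in either direction. The median log2 difference was -0.13 over the subunits and -0.01 over all genes. The lower genes were 16 of 36 in complex I, 7 of 13 in complex IV, 5 of 17 in complex V and 2 of 9 in complex III. Every gene's sets overlapped in range.

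Sdha (chr13:74322254-74350280), whose promoter stretch holds 3 NRF1 matches, ran from 272 to 371 in libraries 1 to 30 with a median of 315, and from 326 to 374 with a median of 343 in libraries 31 to 59. All 22 of the later libraries were above the median of the earlier ones, and the difference was 0.14 ± 0.03 (log2, SE; adjusted p = 0.000511). No stretch of its transcripts was shared with another gene. Ndufb4 (chr16:37647170-37654453), a membrane-arm subunit of complex I, had 26.5 to 47.8 in the earlier libraries, with a median of 33.6, and 23.1 to 38.7 in the later ones, with a median of 27.4. It was lower by 0.25 (log2 difference -0.25 ± 0.06, adjusted p = 0.00212), and 38.3% of its 31-base stretches occur in other genes.

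Cox6c, a small cytochrome c oxidase subunit, had 93.7 to 154 (median 112) and then 78.4 to 148 (median 97.3), with 20 of 22 later libraries under the earlier median. Its log2 difference was -0.23 ± 0.05 (adjusted p = 0.00231). Ndufa5, an accessory subunit beside the iron-sulfur arm, had medians of 33.05 and 28.1 and a log2 difference of -0.24 ± 0.06 (adjusted p = 0.00367). Ndufa6 had medians of 90.9 and 78.5, and differed by -0.20 ± 0.05. For Ndufab1 the medians were 42.6 and 38.1 and the difference -0.17 ± 0.04. Among the complex IV genes Cox7a2 went from a median of 86.1 to 73.0 (-0.20 ± 0.05) and Cox7c from 111 to 95.0 (-0.22 ± 0.06). The largest difference was that of the scarce Cox6b2, with medians of 1.83 and 1.10 and a log2 difference of -0.53 ± 0.12 (adjusted p = 0.00317). The alpha and beta subunits of ATP synthase were not called: Atp5b had means of 1083 ± 96.0 (SD, n = 28) and 1089 ± 82.5 (SD, n = 22), and Atp5a1 of 859 ± 80.9 and 865 ± 50.2.

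The 30 lower subunits had a median transcript of 670 bases, the 48 that passed in neither direction 1026 bases, and Sdha 2900 bases. After a correction of each library for the length of the longest transcript in 20 bins, 12 of 79 subunits were called, where 9.04% of all genes were, and 9 with the principal transcript in its place, where 7.90% of all genes were. Sdha and Atp5o, a stalk subunit of ATP synthase, were then higher under either correction (Sdha 0.15 ± 0.03 and 0.14 ± 0.02), and Ndufb4, Ndufab1, Ndufb2, Cox6c, Ndufa5, Ndufa6 and Cox6b2 were lower under both. Several of these differences were smaller than before: under the first correction and the second, that of Ndufb4 was -0.12 ± 0.03 and -0.16 ± 0.04, of Ndufa5 -0.12 ± 0.03 and -0.11 ± 0.03, of Ndufa6 -0.12 ± 0.03 and -0.07 ± 0.02, and of Cox6c -0.21 ± 0.05 and -0.10 ± 0.03. For Ndufab1 they were -0.17 ± 0.04 and -0.19 ± 0.05. The median over the subunits became -0.03. With the log2 of counted reads as a covariate 11 were called, where 7.49% of all genes were, and with length correction and reads together 9, where 5.62% were. Depth also differed between the sets, with median reads on genes of 11250502 in the earlier and 10323764 in the later libraries, and its part in the difference was not tested beyond these fits. Without libraries 18, 21 and 44 the calls were 44, with 43 of them lower, where 7.82% of all genes were lower.

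**Figure D4:**
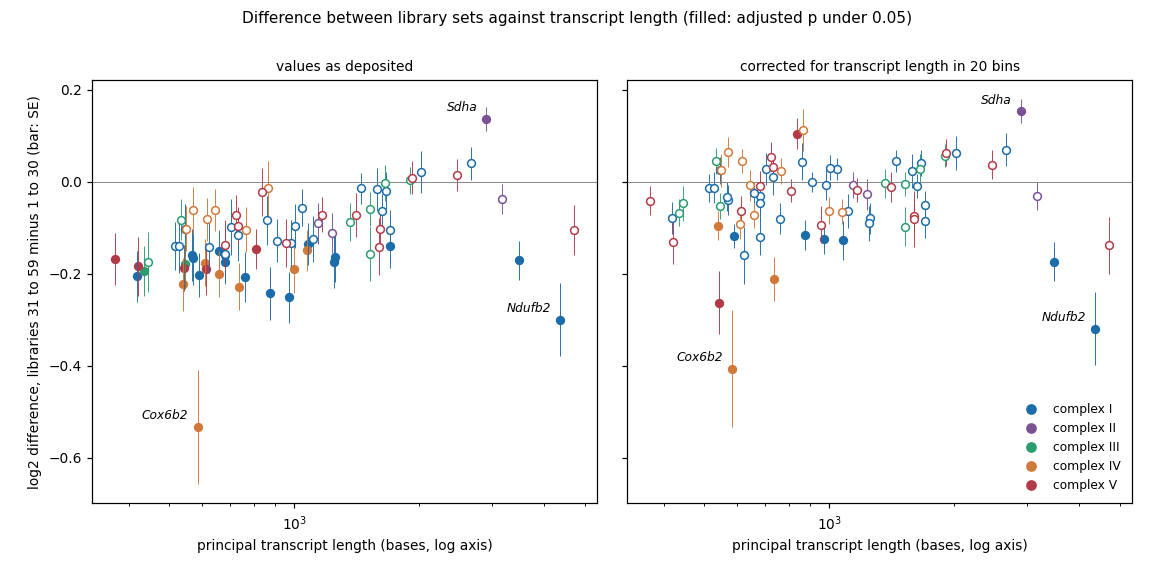
Log2 difference of each of 79 subunits, libraries 31 to 59 minus 1 to 30, with SE bars, against principal transcript length on a log axis, on the values as deposited (left) and after correction for the longest transcript length in 20 bins (right). Filled points passed an adjusted p of 0.05, 31 on the left and 12 on the right, and Sdha lies above 0 in both.

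Other genes of the pathway can be read against the same shares of all genes, 6.46% lower and 13.8% in either direction. Of 12 mitochondrially encoded subunits tested 7 were lower in libraries 31 to 59 and none higher, with a median log2 difference of -0.23. Of 49 assembly factors 3 were lower (Sdhaf4, Cox20 and Cox14) and 2 higher, namely Lrpprc, which stabilizes mitochondrial mRNA (0.23 ± 0.04, adjusted p = 5.36e-05), and the copper chaperone Sco1 (0.13 ± 0.04). Of 20 carriers and exchangers 4 were lower, among them Cycs, the electron carrier cytochrome c (-0.22 ± 0.06, adjusted p = 0.00686), and Coq2 and Coq7 of ubiquinone synthesis. Of 19 transcriptional regulators Yy1 was higher (0.15 ± 0.05) and Sirt3 lower (-0.11 ± 0.04).

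With animal number, a quantity of the titles whose meaning is not stated, 5 subunits rose and none fell, where 7.48% of all genes rose and 14.2% were called. Slopes are log2 changes per 100 animal numbers. They were 0.51 ± 0.12 (SE) for Cox6b2 (adjusted p = 0.00376), 0.13 ± 0.04 for Sdhd (adjusted p = 0.0197), 0.15 ± 0.05 for Ndufa8, 0.09 ± 0.03 for Atp5a1 and 0.12 ± 0.04 for Ndufa10, an accessory subunit of complex I related to nucleoside kinases. The 5 of 79 lie near the background. Within libraries 1 to 30 all 5 were called again and 2 more, all higher, where 4.30% of all genes were higher, and within libraries 31 to 59 none was (limma; 13 of 79 at an unadjusted p under 0.05), where 0.227% of all genes were. Over the 79 subunits 69 slopes were positive in the first set, with a median of 0.08, and 10 in the second, with a median of -0.08. The slopes of the 5 in the second set ran from 0.02 for Atp5a1 to 0.41 for Cox6b2. With the share of reads in the 10 highest genes as a covariate no subunit passed (limma; 1 at an unadjusted p under 0.05) and 0.569% of all genes did. With the share of reads that aligned to several places no subunit passed either (limma; 3 at an unadjusted p under 0.05), and 2.70% of all genes did. A test of the difference in slope between the sets called none of 79 subunits with limma (smallest adjusted p = 0.499; 19 at an unadjusted p under 0.05), and 0.0437% of all genes. Of 49 assembly factors 4 rose and none fell, of 20 carriers and exchangers 5 rose and none fell, and of 19 transcriptional regulators Tfb1m rose while Yy1, Mterf3 and Sirt1 fell. Slc25a5, the adenine nucleotide exchanger of liver, rose by 0.12 ± 0.04 and the cytochrome c oxidase assembly factor Coa6 by 0.30 ± 0.07. The glycerol phosphate dehydrogenase Gpd2 rose by 0.40 ± 0.08, and Yy1 had a slope of -0.17 ± 0.05.

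The mitochondrially encoded subunits were then set beside the nuclear ones. The summed value of the 13 genes ranged from 28585 to 62841 over the libraries (median 42708), or 3.89 to 8.13% of all gene values, and the nuclear subunits summed to 8358 to 12280, or 1.07 to 1.49%. Within the sum mt-Co1, the catalytic subunit of cytochrome c oxidase, stood at 16911 ± 3054, mt-Cytb of complex III at 8869 ± 1423 and mt-Nd2 at 5029 ± 996. In contrast mt-Co2 was at only 49.6 ± 20.02, mt-Co3 at 33.8 ± 12.5 and mt-Atp6 at 22.3 ± 10.02. Of the 31-base stretches of mt-Co2, mt-Co3 and mt-Atp6, 100%, 99.9% and 99.5% also occur in annotated nuclear copies, against 63.9% for mt-Co1, and reads that align to several places were not assigned to genes. These 3 values are therefore uncertain, as are those of mt-Nd3 and mt-Nd4l, and the sum rests on the 6 highest genes.

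**Figure D5:**
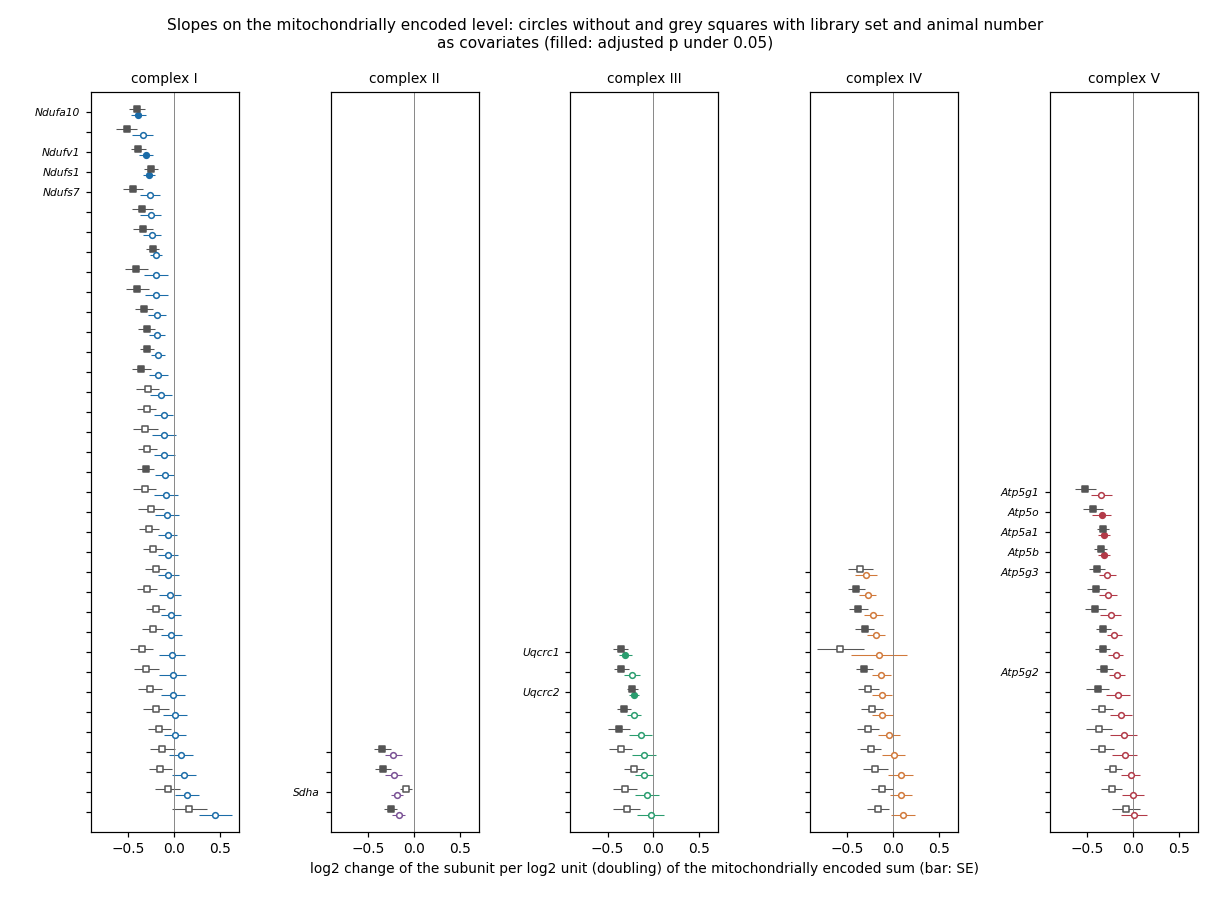
Slope of each of 79 subunits on the summed mitochondrially encoded level, by complex, as log2 change per log2 unit with SE bars. Coloured circles are from the fit on the level alone, with 8 filled points past an adjusted p of 0.05, and grey squares from the fit with library set and animal number as covariates, with 38 filled points, all below 0. The subunits whose slopes the text gives are named.

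Against the mitochondrially encoded level alone 8 of 79 nuclear subunits fell and none rose, where 0.981% of all genes fell and 3.61% were called. The 8 were the ATP synthase subunits Atp5a1, Atp5b and Atp5o, the complex I subunits Ndufa10, Ndufs1 and Ndufv1, which binds NADH, and the core proteins Uqcrc1 and Uqcrc2 of complex III. Their median transcript was 1906 bases, against 765 bases for the other 71. The slope, in log2 units per log2 unit of the sum, was -0.32 ± 0.06 (SE) for Atp5a1 (692 to 996 normalized reads, median 855; adjusted p = 0.00106). It was -0.31 ± 0.07 for Atp5b (903 to 1293, median 1072; adjusted p = 0.0018) and -0.39 ± 0.08 for Ndufa10 (84.7 to 147, median 110; adjusted p = 0.00189). The other slopes were -0.31 ± 0.07 for Uqcrc1, -0.27 ± 0.07 for Ndufs1, -0.30 ± 0.08 for Ndufv1, -0.21 ± 0.06 for Uqcrc2 and -0.34 ± 0.10 for Atp5o, 59.5% of whose stretches are shared with other genes. None of the 8 was among the 30 subunits lower in the later library set.

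Both quantities were lower in the later set, the mitochondrially encoded sum with a median of 43699 in libraries 1 to 30 and 39777 in libraries 31 to 59. With library set and animal number as covariates 38 of 79 subunits fell and none rose, where 4.27% of all genes fell and 8.78% were called, and the median slope moved from -0.14 to -0.31, while over all genes it was -0.01 in both fits. In complex I 15 of 36 subunits then fell, among them Ndufs1 with a slope of -0.25 ± 0.07 and Ndufs7 with -0.44 ± 0.11, as did 3 of 4 subunits of complex II, 5 of 9 of complex III, 4 of 13 of complex IV and 11 of 17 of complex V. The 3 genes of the c-ring had slopes of -0.52 ± 0.11 (Atp5g1), -0.39 ± 0.09 (Atp5g3) and -0.31 ± 0.09 (Atp5g2). Sdha, in contrast, had a slope of -0.08 that did not pass.

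Within libraries 1 to 30 the subunits' median slope was -0.25, with 22 lower, where 3.24% of all genes were lower. Within libraries 31 to 59 it was -0.36, with none called by limma and 31 at an unadjusted p under 0.05, where 0.271% of all genes were called. For Atp5b the slopes within the sets were -0.38 ± 0.09 and -0.34 ± 0.13, and for Ndufa10 -0.60 ± 0.11 and -0.12 ± 0.14. Whether slopes differ between the sets was not tested. Length correction with both covariates left 14 lower, where 1.52% of all genes were. The mitochondrially encoded genes take up to 8.13% of the summed gene values of a library. When libraries were scaled by all other genes, 6 subunits were lower and 1 higher, where 0.368% of all genes were lower and 7.90% were called, and the median slope over all genes moved to 0.10, while that of the subunits was -0.06. With the 2 livers of the most extreme mitochondrially encoded sums left out, 4 subunits were lower, where 0.622% of all genes were. Without libraries 18, 21 and 44 the count was 7, where 0.701% of all genes were lower, but the median slope over the subunits was -0.04 and 30 of the 79 slopes were positive, against 11 with all libraries. Other pathway genes were read in the fit on the mitochondrially encoded level alone, where 0.981% of all genes fell. Of 20 carriers and exchangers 2 fell, Slc25a5 (-0.32 ± 0.07) and the ubiquinone factor Coq9 (-0.26 ± 0.06). Of 49 assembly factors 2 fell, Lrpprc (-0.37 ± 0.09) and the complex I assembly factor Ecsit (-0.33 ± 0.08). Of 19 transcriptional regulators 0 fell, and no gene of these lists rose.

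Ppargc1a, which encodes the coactivator PGC-1alpha that fasting induces in liver and that drives mitochondrial genes, ran from 8.34 to 51.3 normalized reads (median 16.2). No subunit was called against its level with limma (3 at an unadjusted p under 0.05) or with edgeR's quasi-likelihood test, where 2.51% of all genes were called. The median slope was -0.05, and the slopes lay between -0.12 and 0.13 per log2 unit. The smallest p was that of Atp5j, a stalk subunit of ATP synthase (slope -0.09 ± 0.04, adjusted p = 0.195). Pprc1, a relative of Ppargc1a, was higher (0.28 ± 0.07) and the assembly factor Cox19 lower (-0.18 ± 0.05).

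Chromosomes 4 and 6 were the substituted chromosomes, and 8 subunits lie there. The labels give no genotypes, and the marker genotypes that the study reports were not used here. Instead, 2 genes whose values fall into separate ranges stood in for distal segments, although GENCODE places them on chromosomes 2 and 18. Gm13394 was at most 7.94 in 18 libraries and at least 84.4 in 32. The 7.94 was in library 24 alone, and the next highest of the 18 was 1.05 in library 43. Of the 16 genes called against Gm13394, 15 lie on chromosome 6 between starts 120891930 and 146602352. Eno1b was at most 0.405 in 29 libraries and at least 19.4 in 21, and 8 of the 12 genes called against it lie on chromosome 4 between starts 133292459 and 155864723. No subunit was called against Gm13394 (0 at an unadjusted p under 0.05), where 0.140% of all genes were, nor against Eno1b (23 at an unadjusted p under 0.05), where 0.105% were. With edgeR there was likewise no call for either. The slopes on Gm13394 were mostly of opposite sign in the library sets: within libraries 1 to 30, 70 of 79 were positive with a median of 0.009, and within libraries 31 to 59 none was, with a median of -0.020. Neither set gave a call with limma (7 and 23 at an unadjusted p under 0.05), where 0.0612% and 0.0962% of all genes were called, and the difference between the sets was not tested.

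Ndufa9 (chr6:126821721-126849136), which helps to hold the 2 arms of complex I together, is the only subunit inside the chromosome 6 stretch, and its slope on log2 Gm13394 was -0.0001 ± 0.0054 (74.9 to 109 normalized reads, median 86.7; adjusted p = 0.999). The slopes of Ndufa4 (chr6:11900292-11907497), Ndufa5 (chr6:24518666-24528013) and Ndufb2 (chr6:39592574-39603382) were 0.003 ± 0.009, -0.008 ± 0.010 and 0.004 ± 0.014. Sdhb (chr4:140961203-140979193), the iron-sulfur protein of succinate dehydrogenase, lies inside the chromosome 4 stretch, and its slope on log2 Eno1b was 0.017 ± 0.008 (135 to 222 normalized reads, median 158; adjusted p = 0.412). For Ndufb6 (chr4:40270591-40279421), Uqcrh (chr4:116066965-116075071) and Ndufs5 (chr4:123712710-123718202) it was 0.008 ± 0.009, 0.024 ± 0.010 and 0.009 ± 0.011. Apart from Ndufa9 and Sdhb, these subunits lie outside the stretches, and recombination can part their own alleles from the tag. Their slopes therefore do not test alleles at their own positions. All but 1 of the 79 slopes on Eno1b were positive, with a median of 0.02, and libraries 18, 21 and 44, where most subunits were highest, had Eno1b values of 42.8, 30.7 and 38.2, all in the upper range. Without those 3 libraries 57 slopes were positive and none had an unadjusted p under 0.05.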

How the data were processed

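The 50 liver libraries, of 48 animal numbers, were strand-specific and made from poly(A) RNA. Per the labels and the study's methods, the authors trimmed the reads, aligned them with HISAT2 to GRCm38.p5, counted reads per gene with HTSeq 0.11.1, and removed low-count genes and normalized with edgeR; the labels name Trim Galore and the methods another trimmer. The deposited values are a signal in normalized reads, on a scale that differs between libraries: 1 read was worth 0.0317 to 0.0864. Dividing by that step gave whole reads, the count per gene, for 100% of values within 0.01 reads. HTSeq's 5 summary rows, which took 17.0 to 25.3% of a column, name no gene and were left out. No column of the table lacked a sample (0 unmatched). The study gives another library number than the 50 used here.

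The subunits and gene lists were chosen with earlier results of these data known. Symbols, exons, transcript lengths and GC content came from GENCODE M21, which placed 12177 of 12180 genes. The main test was limma 3.58.1 in R 4.3.3 (lmFit, then eBayes with a trend, 2-sided) on log2(value + 0.5), fitted wherever the mean reached 1, with Benjamini-Hochberg adjustment over all genes tested and a threshold of 0.05. The predictors were library set, animal number, and the log2 level of the 13 mitochondrially encoded genes, Ppargc1a, Gm13394 or Eno1b, each gene of the predictor left out of its own test. On simulated counts for 11431 genes with 200 changed, the test of library sets recovered 200 with 7 false calls. A simulated slope on the Ppargc1a level was recovered for 199, with 5 false calls, and animal number was not simulated. The median fitted sizes were 0.96 and 0.47 log2 units, larger than most subunit differences given here. Genes were drawn independently and without a length effect. These counts therefore do not measure recovery of differences as small or as correlated as those of the subunits. Alternatives were edgeR 4.0.16 (quasi-likelihood test on the whole reads), other pseudocounts, filters and scalings, covariates, length and GC corrections in 20 bins, each library set alone, and libraries left out. Named subunits were the 6 highest and 6 lowest per kilobase, those on chromosomes 4 and 6, those at or above percentile 90 of variation, at most 8 called in each direction of a comparison by smallest adjusted p, isoform families, and the subunit with the highest ratio to its median; other genes named in the text were chosen after their values were seen. Nothing in the sources used here says that libraries are independent cultures or litters, so p-values measure the spread between libraries. Values under 3 reads, which are 0.0951 to 0.259 normalized reads by library, cannot be told from 0. Shared sequence was the share of 31-base stretches of a gene's coding transcripts that occur in another annotated gene. Promoters were searched on both strands for motifs of NRF1, ETS factors and YY1. The NRF1 motif was shortened by 1 letter, for reasons of format, after shares with the longer form had been seen; the longer form matched fewer promoters, both of the subunits and of all genes. Scripts ran in Python 3.11.15 with pandas 2.3.3, numpy 2.4.6 and matplotlib 3.10.9.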

Additional observations from a re-analysis of the deposited data

How the results depend on the processing

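No paired analysis was possible because the 50 libraries form a single group in the labels, and the 2 library sets share only 1 animal number, that of libraries 22 and 55. The count of subunits that differ between library sets was 31. With the log2 of counted reads in the model it was 11, and it was 12 with length correction in 20 bins, 9 with correction by principal transcript, 9 with length correction and counted reads, and 52 with scaling by all genes but the mitochondrially encoded ones (13.2% of all genes called); in the remaining alternatives it was 26 to 45. For animal number the count of 5 became 1 with plain CPM and with scaling without the mitochondrial genes (15.4 and 16.4% of all genes called), 13 under either length correction (12 higher and 1 lower, where 17.6% of all genes were called), 3 with GC correction (15.1%), 2 without the 4 libraries that share an animal number (13.4%), and 0 with the share of the 10 highest genes or the share of reads that aligned to several places as a covariate or within libraries 31 to 59. For the mitochondrially encoded level the count of 8 became 13 with plain CPM (5.43% of all genes called), 17 with the share of the 10 highest genes (6.50%), 38 with library set and animal number, 22 within libraries 1 to 30, 0 within libraries 31 to 59, 4 without the 2 farthest libraries and 14 with length correction plus both covariates. For Ppargc1a 0 became 1 under either length correction. Gm13394 and Eno1b called no subunit in any alternative run. The summed subunit level had a mean of 9553, and 12134 in plain CPM. The median correlation of 0.72 moved to 0.27 with length correction in 20 bins and to 0.26 by principal transcript. The median level per kilobase, 47.7, was 76.5 by the longest and 90.8 by the principal transcript. The cause of these shifts was not tested beyond what each alternative changes.

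Of the 22 called values of named subunits none changed sign in any alternative. Those of the library sets lost their call in 7 of 170 refits, those of animal number in 31 of 99 and those of the mitochondrially encoded level in 27 while they kept it in 149. The corrections by principal transcript, the scaling of gene rows alone, the scaling without mitochondrial genes, the share of reads that aligned to several places, the fits that joined length correction with covariates, and those without libraries 18, 21 and 44 or without the 2 farthest libraries were chosen after seeing the data. Depth limits Cox7a1, Ndufa4l2, Cox6b2 and Ndufb2, at 8 to 23.5 reads in the median library, and the first 2 of these fell under the mean of 1 and were not tested. The length slope (median -0.01 in libraries 1 to 30 and 0.05 in libraries 31 to 59) and depth both differed between the library sets. Length, depth and library set therefore cannot be told apart in full. How length slope and depth relate across libraries was not tested.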
